A study of Mus musculus with 4 samples.

Results

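Granule exocytosis is the step in which a hormone-filled vesicle of an islet cell fuses with the plasma membrane. Its machinery was taken here as 42 named genes for SNARE proteins and their partners, complexins, synaptotagmins, Rab GTPases and docking or priming factors. They were found by their gene names in the authors' deposited table, and 64 probes carried one of these names, out of 39429 probes and 26265 named genes on the array. The study asked how a glucokinase activator, called GKA in the labels, alters gene expression in islets, which are the clusters of endocrine cells in the pancreas. Islets isolated from C57BL/6 mice aged 8 weeks were kept for 24 h in RPMI1640 medium with 5.6 mM glucose. The GKA group received 30 µM GKA and the vehicle group received DMSO, the solvent. Each group holds 2 samples, each measured on 1 one-colour Agilent array. No genetic alteration is given for either group. Nothing in the labels tells whether a group's samples are separate mice or cultures. The p-values therefore cover the spread among these 4 samples alone, and that spread may be technical.

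Insulin and the other islet hormones are stored in dense-core granules that are released when calcium enters the cell. A SNARE protein on the granule (a VAMP) zips together with target SNAREs on the plasma membrane (a syntaxin with SNAP25 or SNAP23), under the guidance of a Sec1/Munc18 protein. Rab GTPases and their effectors bring the granule to the membrane, priming factors ready the SNAREs, complexins hold and promote the partly zipped complex, and synaptotagmins couple fusion to calcium. Glucokinase is the first enzyme of glucose use in the beta cell, and an activator of it raises glucose metabolism, which triggers this calcium entry.

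All signals below are log2 of the processed intensity minus that array's 75th percentile, so a value of 0 is the 75th percentile of the array. That percentile was 557 and 598 intensity units on the GKA arrays and 751 and 755 on the vehicle arrays. Between 59.7% and 63.6% of the probes were well above background, and 0 spots were saturated. The 8 islet hormone and granin genes used to check the tissue were all well above background, with medians of 8.82 and 8.80 on the GKA arrays and 8.61 and 8.52 on the vehicle arrays. All 4 arrays were on 1 slide, the vehicle samples at the first positions and the GKA samples at the next, so slide position and treatment cannot be told apart. In whole islets, fewer cells of a type and less RNA per cell cannot be told apart either.

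The exocytosis genes moved in both directions and most did not pass the test. The synaptotagmin Syt5 rose most with GKA, and the complexin Cplx1, the Rab GTPase Rab3d, the priming factor Unc13b and the synaptotagmin Syt13 rose as well. The Rab GTPases Rab37 and Rab3b and the synaptotagmin Syt9 fell. Of the 42 genes, 41 passed the filter on dim probes, and of these 5 were higher, 3 were lower and 33 did not pass (limma, adjusted p under 0.05 over all genes). This is 8 of 41, or 19.5%, against 17.1% of the 17185 genes tested, so the share was near the background. The higher genes made up 12.2% against 9.11% of all genes, and the lower ones 7.32% against 8.01%. At least a 2-fold change together with a passing p was seen in 2 of the 41, Syt5 and Rab37, against 5.59% of all genes.

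The GKA arrays did not overlap with the vehicle arrays in 32 of the 41 genes, 78.0%, against 65.9% of all genes. The median log2 fold change was 0.13, against -0.01 for all genes, and the median size of the change was 0.33, against 0.26. A median of 0.13 separated the GKA replicates of an exocytosis gene, and 0.18 the vehicle replicates. With vehicle replicate 1 left out, 3 exocytosis genes passed (1427 of all genes), and with vehicle replicate 2 left out, 5 passed (2446 of all genes). With either GKA replicate left out, 1 passed, beside 629 of all genes for replicate 1 and 384 for replicate 2. Syt5 is the gene that still passed in each of these fits. The plot of fold changes by role shows the intervals.

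**Figure D1:**
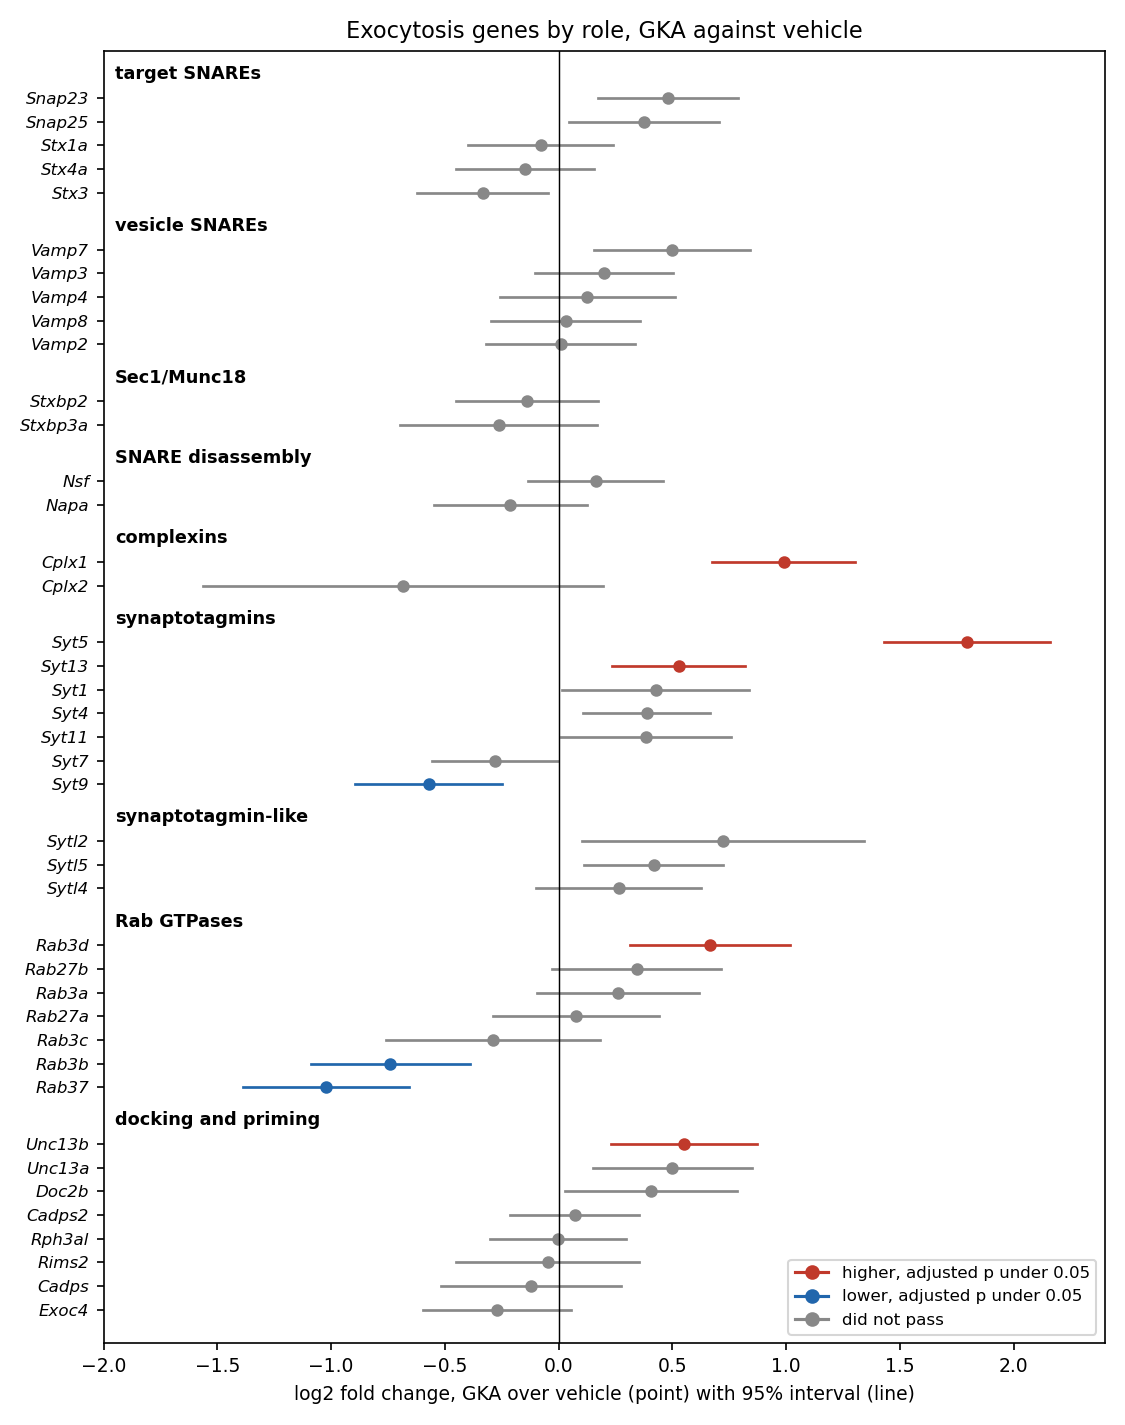
Log2 fold change of GKA over vehicle (horizontal axis, points) with its 95% interval (lines) for the 41 tested exocytosis genes, grouped by role, from 2 arrays per group. Syt5 at 1.79 lies to the right of all others and Rab37 at -1.02 farthest to the left, and the SNARE genes lie between -0.33 and 0.50.

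**Figure D2:**
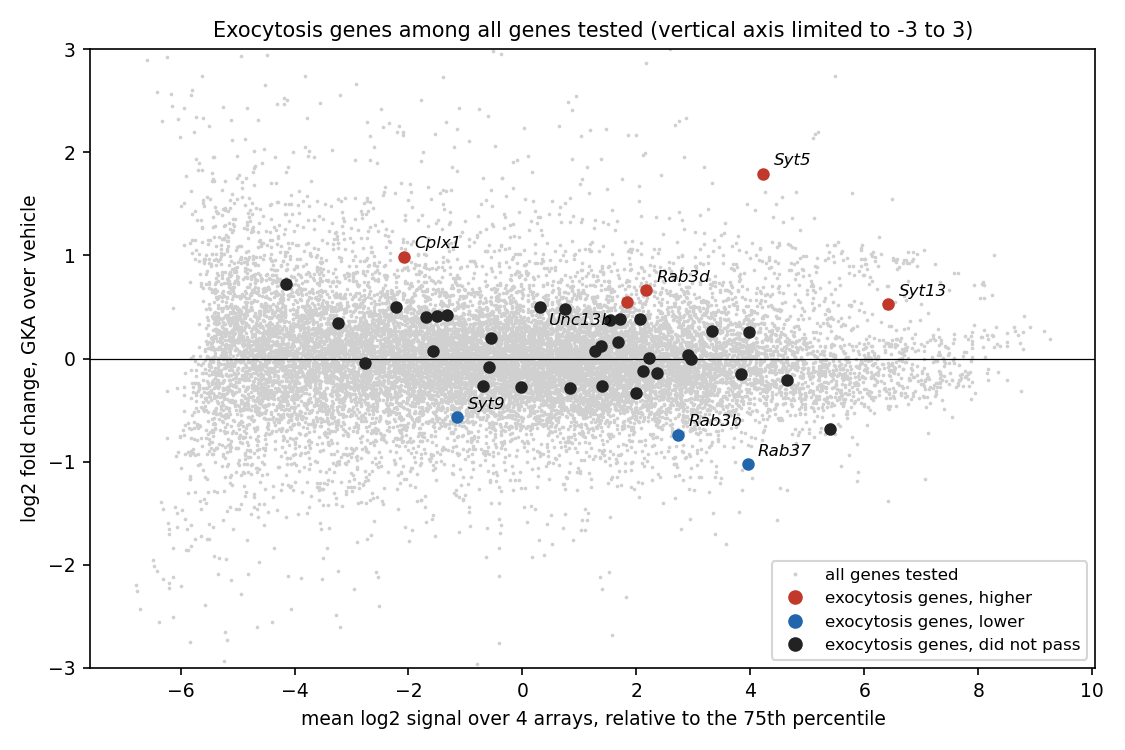
Mean log2 signal over the 4 arrays (horizontal axis) against the log2 fold change of GKA over vehicle (vertical axis, limited to the range shown) for all 17185 genes in grey, with the 41 exocytosis genes as larger points. Most exocytosis genes lie within the cloud of all genes, and Syt5 lies above it at its signal.

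For 5 of the 8 genes that passed, RefSeq (build GRCm38.p6) gives a promoter of 300 bases, 250 before the start of the transcript and 50 after it, and these are shown because genes of 1 machinery moved in opposite directions. Capitals mark the half-site of the cAMP response element, TGACG or its reverse complement CGTCA, and the E-box CACGTG, both searched on either strand. The promoters of the genes that rose are those of Cplx1 (chr5:108549978-108550277, minus strand), Rab3d (chr9:21918134-21918433, minus strand) and Unc13b (chr4:43058703-43059002, plus strand).
Cplx1: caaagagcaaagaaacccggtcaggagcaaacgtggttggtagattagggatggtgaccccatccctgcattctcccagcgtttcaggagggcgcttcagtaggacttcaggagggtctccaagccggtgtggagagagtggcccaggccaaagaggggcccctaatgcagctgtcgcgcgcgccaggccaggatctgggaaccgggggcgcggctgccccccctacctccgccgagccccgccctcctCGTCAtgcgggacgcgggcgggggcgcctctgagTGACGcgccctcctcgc
Rab3d: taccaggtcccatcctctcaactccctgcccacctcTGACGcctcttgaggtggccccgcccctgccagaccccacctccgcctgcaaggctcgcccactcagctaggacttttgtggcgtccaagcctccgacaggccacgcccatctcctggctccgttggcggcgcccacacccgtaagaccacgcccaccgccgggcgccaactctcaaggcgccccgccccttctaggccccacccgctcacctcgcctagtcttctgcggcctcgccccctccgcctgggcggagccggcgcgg
Unc13b: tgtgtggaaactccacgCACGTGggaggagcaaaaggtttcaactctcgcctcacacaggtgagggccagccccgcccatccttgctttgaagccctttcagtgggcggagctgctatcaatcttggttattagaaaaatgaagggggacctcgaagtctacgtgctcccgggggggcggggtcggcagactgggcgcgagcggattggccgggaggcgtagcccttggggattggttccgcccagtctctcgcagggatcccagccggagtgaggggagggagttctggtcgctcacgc
The promoters of the genes that fell are those of Rab3b (chr4:108878820-108879119, plus strand) and Syt9 (chr7:107370540-107370839, plus strand).
Rab3b: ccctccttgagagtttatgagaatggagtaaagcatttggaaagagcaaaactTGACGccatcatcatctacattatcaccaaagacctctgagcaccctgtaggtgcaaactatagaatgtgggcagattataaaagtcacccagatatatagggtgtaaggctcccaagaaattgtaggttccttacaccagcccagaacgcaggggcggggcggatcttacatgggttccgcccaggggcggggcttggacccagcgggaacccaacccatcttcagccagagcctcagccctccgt
Syt9: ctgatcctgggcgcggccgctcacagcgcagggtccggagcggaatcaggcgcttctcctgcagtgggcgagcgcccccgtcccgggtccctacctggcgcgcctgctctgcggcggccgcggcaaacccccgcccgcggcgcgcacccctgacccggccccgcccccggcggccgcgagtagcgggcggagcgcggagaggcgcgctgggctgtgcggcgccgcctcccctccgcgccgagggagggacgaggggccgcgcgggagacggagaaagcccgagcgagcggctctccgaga
The half-site occurs 2 times in the Cplx1 promoter, 1 time each in those of Rab3d and Rab3b, and 0 times in those of Unc13b and Syt9. The E-box occurs 1 time, in the Unc13b promoter. The motifs overlapped in 0 places, and the full element TGACGTCA occurs in 0 of the 5. Among all 32851 promoters of the table, 20.8% hold the half-site, 1.79% the full element and 7.15% the E-box. Of the 32 promoters listed for 28 tested exocytosis genes, 12 (37.5%) hold the half-site and 7 (21.9%) the E-box, and their median GC content was 60.2%, against 52.7% for all promoters. These matches describe letters in a window and do not show binding. Syt5, Syt13 and Rab37 also passed.

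Synaptotagmins, the vesicle proteins that sense calcium or regulate fusion, held the largest rise. Syt5 (probe at chr7:4491370-4491429 on mm9) had signals of 5.25 and 5.0 on the GKA arrays and 3.43 and 3.24 on the vehicle arrays. Both GKA values lay far above the higher vehicle value. This is a log2 fold change of 1.79 ± 0.14 (SE; adjusted p = 0.0051, 95% interval 1.43 to 2.16), which equals 3.47-fold. The ratio in the authors' deposited table, made from unscaled intensities, was 2.65. Syt5 passed under each of the 16 alternative settings, with log2 fold changes of 1.25 to 1.92. The names of Syt5 and Syt9 have been exchanged in part of the literature, and the names here are those of the array's design, with Entrez gene 53420 for Syt5 and 60510 for Syt9.

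Syt13, a synaptotagmin that lacks the residues for calcium binding, had signals of 6.64 and 6.73 with GKA and 6.20 and 6.12 with vehicle. The groups did not overlap, and replicates differed by less than the groups did. It rose by 0.53 ± 0.12 on the log2 scale (adjusted p = 0.0389), and it did not pass without scaling (0.14) or with spike-in scaling, where it lay at -0.02. Syt9 fell, with signals of -1.47 and -1.39 with GKA and -0.76 and -0.96 with vehicle. The difference was -0.57 ± 0.13 (adjusted p = 0.0404), and the authors' deposited table gives a ratio of 0.515. Neither gene passed when the filter and the fit were run anew without any 1 of the 4 arrays, with adjusted p = 0.0974 to 0.181 for Syt13 and 0.0525 to 0.155 for Syt9.

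The other 4 synaptotagmins did not pass, though their groups did not overlap either. Syt4, a synaptotagmin of dense-core vesicles with altered calcium binding, had 1.89 and 1.93 with GKA and 1.53 and 1.52 with vehicle. The replicates were close together in both groups, and the log2 fold change was 0.39 ± 0.11 (adjusted p = 0.0687, 95% interval 0.11 to 0.67). Syt1, the fast calcium sensor of synaptic vesicles, stood at 0.43 (95% interval 0.02 to 0.84), and Syt11, a relative of Syt4, at 0.38 (95% interval 0.01 to 0.76). Syt7, a high-affinity calcium sensor of insulin secretion, had -0.15 and -0.18 with GKA and 0.11 and 0.11 with vehicle, lower on both GKA arrays. The difference was -0.28 (adjusted p = 0.136), and its other probe gave -0.61. In all, 2 of the 7 synaptotagmins rose, 1 fell and 4 did not pass, where 17.1% of all genes passed. The groups did not overlap in 7 of 7, against 65.9% of all genes. The direction of Syt1, Syt4 and Syt11 turned below 0 with spike-in scaling.

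Complexins bind the assembled SNARE complex. Cplx1 (probe at chr5:108947895-108947954 on mm9) had signals of -1.61 and -1.55 with GKA and -2.66 and -2.48 with vehicle. The 2 groups were well apart, with replicates within 0.2 log2 units of each other. Cplx1 rose by 0.99 ± 0.12 on the log2 scale (adjusted p = 0.0122), which equals 1.98-fold. The authors' deposited table gives a ratio of 1.52. Without the filter on dim probes Cplx1 did not pass. It missed the threshold with GKA replicate 1 left out (adjusted p = 0.059), with GKA replicate 2 left out (adjusted p = 0.0825) and with spike-in scaling (0.44).

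Cplx2, the other complexin, did not pass, and its vehicle arrays differed from each other. Its signals were 4.93 and 5.16 with GKA and 6.26 and 5.20 with vehicle, so vehicle replicate 1 was high and vehicle replicate 2 lay just above the GKA arrays. The log2 fold change was -0.68 ± 0.35 (adjusted p = 0.221, 95% interval -1.56 to 0.20). On this probe it was -1.21 without vehicle replicate 2 (adjusted p = 0.0183) and -0.16 without vehicle replicate 1 (adjusted p = 0.612 with the probe kept), so the size of the difference rested on vehicle replicate 1. Without vehicle replicate 1 the brightest probe was another one, which gave -0.79. That is the probe at -0.83 on all 4 arrays, whose position is in question as described next. All 4 Cplx2 probes were lower with GKA, with log2 fold changes of -0.83 to -0.33. The probe at -0.83 passed in a fit over probes (adjusted p = 0.0296), but the authors' deposited table places it on chromosome 2, while the other 3 lie on chromosome 13.

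Rab GTPases on secretory granules moved both ways. Rab37 (probe at chr11:115023483-115023542 on mm9), first known from mast cell granules, had signals of 3.33 and 3.55 with GKA and 4.56 and 4.36 with vehicle. Both GKA arrays were below both vehicle arrays by a wide margin. The log2 fold change was -1.02 ± 0.14 (adjusted p = 0.0149), which equals 2.03-fold lower. Its second probe gave -1.04, but it lies at chr11:115023488-115023547 and so covers nearly the same bases as the first. The ratio in the authors' deposited table was 0.379. Without the filter on dim probes Rab37 did not pass. Rab37 passed with either vehicle replicate left out, but missed the threshold at an adjusted p = 0.0709 in the absence of GKA replicate 1 and 0.0697 in that of GKA replicate 2.

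Rab3b, one of the 4 Rab3 proteins that act at the docking of granules, had 2.41 and 2.32 with GKA and 3.23 and 2.98 with vehicle. The GKA arrays were the lower ones, and the vehicle replicates differed more than the GKA replicates did. It fell by 0.74 ± 0.14 on the log2 scale (adjusted p = 0.0272), and the authors' deposited table gives a ratio of 0.457. Without the filter on dim probes Rab3b did not pass. It missed the threshold with vehicle replicate 1 left out (adjusted p = 0.0832), and with a GKA replicate left out the adjusted p was 0.0976 for replicate 1 and 0.14 for replicate 2. Rab3d, known from the zymogen granules of exocrine cells, rose, with 2.39 and 2.62 with GKA and 1.92 and 1.75 with vehicle. The rise was 0.66 ± 0.14 on the log2 scale (adjusted p = 0.0349), and its other probe, at 0.48, did not pass in the fit over probes (adjusted p = 0.091). Rab3d did not pass when any 1 of the 4 arrays was left out (adjusted p = 0.0674 to 0.164), without scaling (0.28) or with spike-in scaling (0.12).

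Because Rab3d is also known from exocrine cells, markers of acinar cells were read on the same arrays. Of 17 acinar markers on the array, 8 were tested and 8 were not well above background on any array. The summed linear level of the 8 tested markers, relative to each array's 75th percentile, was 12.0 and 11.3 on the GKA arrays and 5.47 and 5.05 on the vehicle arrays. Of the 8, 2 rose, among them Bhlha15 (1.37), and 1 fell, Rnase1 (-0.69), while Amy2a5 had signals of -5.21 and -5.98 with GKA and -5.13 and -5.34 with vehicle. The part of acinar cells in the Rab3d result was not tested.

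The remaining Rab genes did not pass. Rab3a, the Rab3 protein most abundant in brain and also present in beta cells, had 4.14 and 4.09 with GKA and 3.99 and 3.71 with vehicle, a difference of 0.26 (95% interval -0.10 to 0.62). Rab27a, which tethers insulin granules through its effector granuphilin, had 1.22 and 1.42 with GKA and 1.12 and 1.36 with vehicle. Its groups overlapped, and the 95% interval of the difference was -0.29 to 0.44. Rab27b, its close relative, stood at 0.34 (95% interval -0.03 to 0.72), with its other probe at 0.48. With no scaling or with spike-in scaling, both Rab27 genes and Rab3a turned below 0. The 3 probes of Rab3c disagreed, with log2 fold changes of -0.29, -0.28 and 0.24. Those at -0.29 and -0.28 cover nearly the same bases. In all, 1 of 7 Rab genes rose and 2 fell, against 9.11% and 8.01% of all genes, and 4 did not pass.

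Among docking and priming factors, Unc13b alone passed of 8 tested, against 17.1% of all genes. Unc13b (probe at chr4:43277637-43277696 on mm9), a priming factor of the Munc13 family, had 2.02 and 2.21 with GKA and 1.51 and 1.62 with vehicle. The groups did not overlap. It rose by 0.55 ± 0.13 on the log2 scale (adjusted p = 0.0433), which equals 1.46-fold. It did not pass when any 1 of the 4 arrays was left out (adjusted p = 0.0789 to 0.199), without scaling (0.17) or with spike-in scaling (0.005). Its relative Unc13a, the main Munc13 of brain synapses, had -1.88 and -2.07 with GKA and -2.58 and -2.38 with vehicle, again higher on both GKA arrays. The log2 fold change of Unc13a was 0.50 ± 0.14 (adjusted p = 0.0636, 95% interval 0.15 to 0.85), and it lay below 0 with spike-in scaling.

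Doc2b, a calcium-binding protein that takes part in insulin secretion, stood at 0.41 (adjusted p = 0.119, 95% interval 0.03 to 0.79), though below 0 with spike-in scaling. Rph3al, a Rab effector also called Noc2, had 2.95 and 2.95 with GKA and 2.88 and 3.03 with vehicle. The GKA values lay between the vehicle values, and the 95% interval of the difference was -0.30 to 0.30. The priming factors Cadps (-0.12, 95% interval -0.52 to 0.28) and Cadps2 (0.07, 95% interval -0.21 to 0.35), the scaffold Rims2 (-0.05, 95% interval -0.45 to 0.35) and the exocyst subunit Exoc4 (-0.27, 95% interval -0.60 to 0.06) did not pass. The scaffold gene Rims1 was the member that was not tested. One of its probes was well above background on 1 GKA and 0 vehicle arrays, with signals of -4.93 and -5.92 with GKA and -6.58 and -5.71 with vehicle. The other was well above background on 1 array of each group, with -4.29 and -5.17 with GKA and -6.09 and -5.33 with vehicle, so no fold is given.

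**Figure D3:**
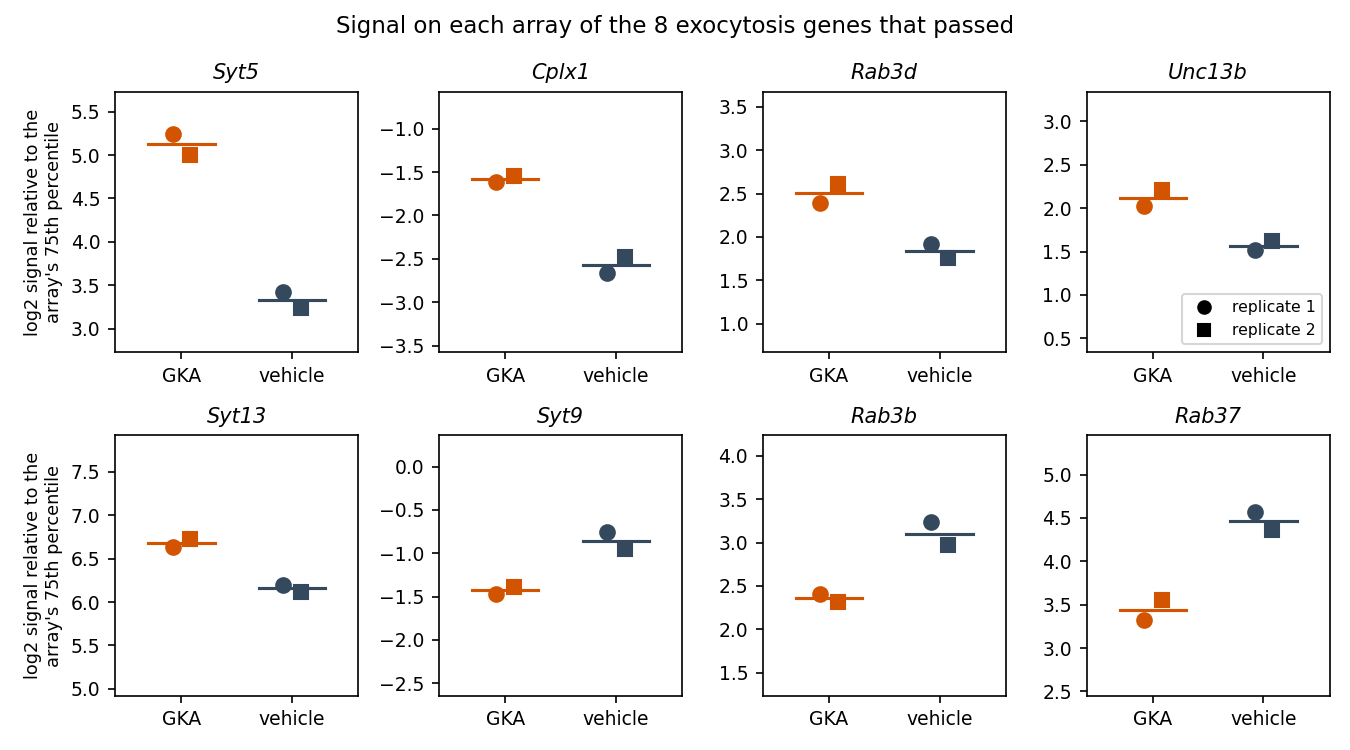
Log2 signal relative to the array's 75th percentile (vertical axis) on each GKA and vehicle array for the 8 exocytosis genes that passed, with circles for replicate 1, squares for replicate 2 and lines for the group means, on axes of equal span but different range. In each panel the GKA and vehicle points do not overlap, and the gap is widest for Syt5.

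None of the 14 SNARE, Sec1/Munc18 and SNARE disassembly genes passed, a count of 0 against 17.1% of all genes. An unadjusted p under 0.05 in limma was found for 4 of the 14, against 36.1% of all genes. Among target SNAREs, Snap25, the partner of syntaxin in the beta cell, had 1.61 and 1.82 with GKA and 1.29 and 1.40 with vehicle. Both GKA values were the higher ones, and the log2 fold change was 0.37 ± 0.13 (adjusted p = 0.106, 95% interval 0.05 to 0.70). Its widely expressed relative Snap23 had 0.92 and 1.05 with GKA and 0.44 and 0.57 with vehicle. The groups did not overlap, and the log2 fold change was 0.48 ± 0.12 (adjusted p = 0.053). The second Snap23 probe, at 0.68, passed in the fit over probes (adjusted p = 0.0331). Both genes turned below 0 with spike-in scaling, and Snap25 also without scaling (-0.01).

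The 3 syntaxins had log2 fold changes below 0 and did not pass. Stx1a, the syntaxin of rapid granule fusion, had -0.55 and -0.69 with GKA and -0.61 and -0.47 with vehicle. The groups overlapped, and the 95% interval of the difference was -0.40 to 0.24. Stx4a, a plasma membrane syntaxin of sustained insulin release, had 3.84 and 3.68 with GKA and 3.91 and 3.92 with vehicle, a difference of -0.15 (adjusted p = 0.419, 95% interval -0.45 to 0.15). Stx3, a syntaxin also found on granules, had 1.83 and 1.84 with GKA and 2.21 and 2.12 with vehicle. Its 3 probes gave log2 fold changes of -0.34 to -0.33, and the gene did not pass (adjusted p = 0.101).

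All 5 vesicle SNAREs had log2 fold changes above 0, but 5 of 5 were below 0 with spike-in scaling and 4 of 5, all but Vamp7, without scaling, while Vamp2 and Vamp8 were also below 0 with median scaling and Vamp8 with normexp and the 75th percentile. Vamp2, the main vesicle SNARE of insulin granules, had 2.20 and 2.25 with GKA and 2.33 and 2.11 with vehicle. The GKA values lay between the vehicle values, and the 95% interval of the difference was -0.32 to 0.33. Vamp8, which serves exocrine granules and granule-to-granule fusion, had 3.03 and 2.82 with GKA and 2.86 and 2.94 with vehicle, an overlap again (95% interval -0.30 to 0.36). Vamp7, a VAMP resistant to tetanus toxin, had 0.51 and 0.59 with GKA and -0.08 and 0.18 with vehicle. It was higher on both GKA arrays by 0.50 ± 0.14 (adjusted p = 0.0625, 95% interval 0.15 to 0.84). Vamp3, the widely expressed relative of Vamp2, stood at 0.20, and Vamp4, a VAMP of the trans-Golgi, at 0.13 with its other probe at -0.07.

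Stxbp2, a Sec1/Munc18 protein, had 2.37 and 2.20 with GKA and 2.47 and 2.38 with vehicle. The values nearly met, the log2 fold change was -0.14 (adjusted p = 0.462, 95% interval -0.45 to 0.17), and the second probe pointed the other way at 0.42. Stxbp3a (now Stxbp3), the partner of syntaxin 4, stood at -0.26 (95% interval -0.70 to 0.17). Its other probes gave -0.41 and -0.40 and did not pass in the fit over probes. Napa, the adaptor that recruits the disassembly enzyme, had 4.61 and 4.45 with GKA and 4.84 and 4.65 with vehicle, a difference of -0.21 (adjusted p = 0.308, 95% interval -0.55 to 0.12). The second probe of Napa gave 0.30. Nsf, the enzyme that takes spent SNARE complexes apart, stood at 0.16 (95% interval -0.14 to 0.46).

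Synaptotagmin-like proteins link Rab27 to the membrane, and none of the 3 passed, a count of 0, with 2 at an unadjusted p under 0.05 in limma, against 36.1% of all genes. Sytl4, which encodes granuphilin, the docking factor of insulin granules, had 3.32 and 3.61 with GKA and 3.16 and 3.24 with vehicle. Its lower GKA value lay just above the higher vehicle value, and the difference was 0.26 (adjusted p = 0.246, 95% interval -0.10 to 0.63). Sytl5 had -1.27 and -1.32 with GKA and -1.63 and -1.79 with vehicle, a difference of 0.42 ± 0.12 (adjusted p = 0.0715). Sytl2 stood at 0.72 ± 0.25 (adjusted p = 0.101), with replicates that differed more, at -3.50 and -4.07 with GKA and -4.29 and -4.72 with vehicle. With spike-in scaling Sytl4 and Sytl5 lay below 0, and Sytl4 also without scaling.

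Several exocytosis genes are also neuronal, and islets carry nerve fibres and Schwann cells. Of 14 neural and Schwann cell markers on the array, 13 were tested, of which 4 rose (Tubb3 1.05, Prph 0.89, Nefl 0.80 and Gap43 0.68) and 1 fell. Their summed linear level was 14.5 and 13.9 on the GKA arrays and 11.6 and 11.8 on the vehicle arrays, and 0 of the 14 were undetected on all arrays. Leukocyte markers had 1 higher and 6 lower of 18 tested, with a summed level of 25.4 and 22.9 on the GKA arrays and 29.2 and 30.5 on the vehicle arrays. The part of these cells in the exocytosis results was not tested.

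Beyond the 42, a list of 99 further exocytosis genes was read in the same fit. Of these, 95 were on the array and 86 were tested: 8 rose, 5 fell and 73 did not pass, or 15.1%, against 17.1% of all genes. Their median log2 fold change was 0.04. The rises with the largest fold were in Syt8 (1.23 ± 0.15, adjusted p = 0.0117), Bet1 (1.04 ± 0.16), Syt6 (0.91 ± 0.13), Erc1 (0.77 ± 0.12) and the synaptic vesicle protein Syp (0.73 ± 0.15). The second Erc1 probe gave -0.04. Syt8 was dim, with signals of -4.00 and -4.22 with GKA and -5.22 and -5.47 with vehicle. Erc1 was dim too, with -2.93 and -3.11 with GKA and -3.80 and -3.77 with vehicle. The genes that fell were the scaffold Rims3 (-1.22 ± 0.16, adjusted p = 0.0139), the Rab3 exchange factor Rab3il1 (-1.02 ± 0.22), Sytl3 (-0.72 ± 0.13), Pclo (-0.65 ± 0.15) and Stxbp5 (-0.58 ± 0.11). The 4 probes of Pclo, a scaffold of the active zone, ran from -0.65 to 1.06. Stxbp5 was also dim, with -4.19 and -4.17 with GKA and -3.60 and -3.60 with vehicle. With GKA replicate 1 left out 1 of the further genes passed, with GKA replicate 2 left out 0, with vehicle replicate 1 left out 6 and with vehicle replicate 2 left out 7.

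Counts of exocytosis genes in each direction moved with the scaling of the arrays, as did those of all genes, the probe signals being dimmer on the GKA arrays. With the 75th percentile, 5 of 41 were higher and 3 lower. Without scaling, 2 were higher and 14 lower, against 4.36% and 44.6% of all genes, and the median of all genes lay at -0.40. Spike-in controls are RNAs added to each sample in known amounts. With scaling on them, 1 was higher and 14 lower, against 2.53% and 44.3% of all genes. The median of all genes then lay at -0.56. Mean log2 levels of these controls were 11.71 and 11.84 on the GKA arrays and 11.78 and 11.45 on the vehicle arrays. The level was lowest on vehicle replicate 2, though the 75th percentiles of the vehicle arrays were close. With normexp background correction, 13 were higher and 4 lower on the 75th percentile, against 17.4% and 12% of all genes. On quantiles 9 were higher and 3 lower, against 11.4% and 12% of all genes. Syt5, Rab37, Rab3b and Syt9 kept their direction and passed under all 6 of the other scalings and backgrounds tried. Cplx1 passed under 5 of these.

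**Figure D4:**
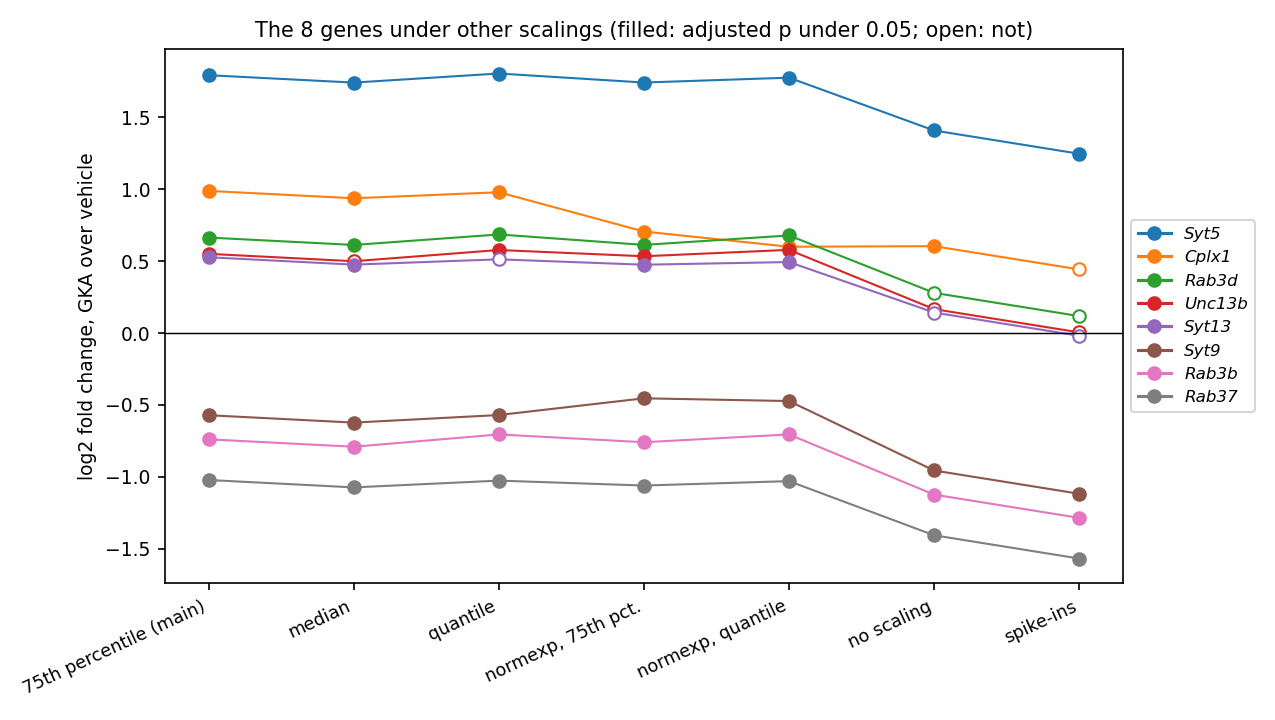
Log2 fold change of GKA over vehicle (vertical axis) for the 8 exocytosis genes that passed, under 7 ways of background correction and scaling (horizontal axis), with filled points at an adjusted p under 0.05. Syt5 stays at or above 1.25 and Rab37 at or below -1.02 throughout, while Rab3d, Unc13b and Syt13 approach 0 without scaling and with spike-in scaling.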

How the data were processed

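The values are intensities made with Agilent Feature Extraction, version 10.7.3.1 per the file headers and 9.1 per the submitters' processing notes. The processed intensity is background-subtracted, detrended and linear, per the file headers, and was not scaled between arrays. The table the authors deposited holds 1 mean intensity per group and the ratio of GKA over vehicle. For 39030 of 39030 probes with 1 spot, its group values equalled the mean of the array values within 0.1%, and its median ratio was 0.841.

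Control spots and outlier-marked spots were left out, a probe's log2 value was the mean of its remaining spots, and each array's 75th percentile was subtracted. Probes had to be well above background on the 2 arrays of 1 group or of both. A gene was represented by its kept probe with the highest mean signal. Groups were compared with limma 3.58.1 in R 4.3.3 (lmFit and eBayes, two-sided, 2 residual and 3.33 prior degrees of freedom), with Benjamini-Hochberg adjustment over the 17185 genes tested and a threshold of 0.05. An exact permutation of 2 against 2 arrays cannot give p below 0.333, so none is reported. The limma steps were tested on simulated data. The number of arrays limits the precision.

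The 42 genes and the other lists were chosen with earlier results of these data known. Every member is accounted for. Per-array signals are given for all that passed and, in each role where none passed, for the member with the highest mean signal. Other members with per-array signals, and those named among markers, were chosen after their values were seen. Of the further exocytosis genes, up to 5 that passed were to be named per direction, and 3 more that rose are named in the closing section. Some genes are not reported here. The 41 tested members matched a symbol in RefSeq (GRCm38.p6), and 1 symbol differed. Probe positions are on mm9, as in the authors' deposited table. Promoters and their coordinates are from RefSeq. Alternatives changed the scaling, background correction, filter, choice of probe, outlier spots, variance model and replicate block, and left out each array, also, as chosen after seeing the data, with genes and probes kept. Where normexp was planned on the mean signal, it was run on the median signal with an offset of 50.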

Additional observations from a re-analysis of the deposited data

How the results depend on the processing

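The 8 exocytosis genes, 13 further exocytosis genes and 2943 genes overall that passed became 16, 38 and 8409 without scaling, 15, 31 and 8049 with spike-in scaling, 17, 22 and 5049 with normexp and the 75th percentile, and 1, 0 and 223 without the filter on dim probes. The exocytosis gene that passed without this filter was Syt5. In limma 25 of the 86 further genes had an unadjusted p under 0.05. An intensity trend gave 13 exocytosis genes. These counts changed by 1.5 times or less under the other alternatives, apart from leaving out an array and the block. Leaving out 1 array gave 1 to 5, 0 to 7 and 384 to 2446, where the lone array of a group is assumed to vary like the other group. With the genes and probes kept, chosen after seeing the data, it gave 1 to 7 (3 without vehicle replicate 1, 7 without vehicle replicate 2), 1 to 9 and 534 to 2843 (623 without GKA replicate 1, 1787 without vehicle replicate 1). With the replicate number as a block, 5, 8 and 1923 passed. Syt5, Cplx1, Rab37, Rab3b and Sytl2 were the 5 under this block, while Rab3d, Syt13, Syt9 and Unc13b did not pass. The labels do not say whether same-numbered arrays form pairs. Their deviations had r = 0.07 across 17185 genes, which are not independent. With 2 arrays per group this value cannot decide whether they do. Genes whose sign turned without scaling were Rab27a (-0.31), Rab27b (-0.041), Rab3a (-0.12), Nsf (-0.22), Cadps2 (-0.31), Sytl4 (-0.12), Snap25 (-0.0098), Vamp2 (-0.38), Vamp3 (-0.19), Vamp4 (-0.26) and Vamp8 (-0.35). With spike-in scaling they were Rab27a (-0.47), Rab27b (-0.20), Rab3a (-0.29), Nsf (-0.38), Cadps2 (-0.48), Doc2b (-0.14), Unc13a (-0.046), Syt1 (-0.12), Syt11 (-0.16), Syt13 (-0.019), Syt4 (-0.16), Sytl4 (-0.28), Sytl5 (-0.13), Snap23 (-0.065), Snap25 (-0.17), Vamp2 (-0.54), Vamp3 (-0.35), Vamp4 (-0.42), Vamp7 (-0.047) and Vamp8 (-0.52). Others were Vamp2 (-0.043) and Vamp8 (-0.021) with median scaling, Rph3al with quantile normalization (0.027) or normexp and quantile (0.012), Rims2 (0.045) and Vamp8 (-0.00087) with normexp and the 75th percentile, and Stxbp2 (0.14), Napa (0.042) and Pclo (0.30) with the mean of all probes. Leaving out 1 array gave -0.042 to 0.19 for Rab27a, -0.30 to 0.061 for Cadps, -0.074 to 0.13 for Vamp8, -0.22 to 0.13 for Rims2, -0.076 to 0.070 for Rph3al, -0.10 to 0.12 for Vamp2, -0.0046 to 0.26 for Vamp4 and -0.17 to 0.78 for Erc1. Erc1 was represented by another probe without some arrays, and with its probe kept it gave 0.68 to 0.86. The unscaled and spike-in settings shift all genes down, and the cause of the dimmer GKA arrays was not tested. For the other changes the cause was not tested. With 2 arrays per group, calls near the threshold are the least certain.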

Other observations

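SNAREs of transport between the endoplasmic reticulum and the Golgi, an earlier step of the secretory pathway than granule fusion, were picked from the further exocytosis genes after their values were seen. Of the 6 measured, 4 rose and 0 fell, against 9.11% and 8.01% of all genes, with a median log2 fold change of 0.53, against -0.01 for all genes. Since the group was picked for its values, nothing is read from these counts. Bet1, a SNARE of this step, had signals of 1.74 and 1.99 on the GKA arrays and 0.67 and 0.98 on the vehicle arrays. Ykt6, a SNARE held to membranes by lipid anchors, had 1.79 and 1.78 with GKA and 1.19 and 1.18 with vehicle, a log2 fold change of 0.60 ± 0.11 (adjusted p = 0.0259 in limma). Stx5a, the syntaxin of the Golgi, had 4.04 and 4.0 with GKA and 3.53 and 3.41 with vehicle, and Sec22b had 4.71 and 4.55 with GKA and 4.13 and 4.12 with vehicle. The groups did not overlap in any of these 4 genes. Ratios in the authors' deposited table, made from unscaled intensities, were 1.58 for Bet1, 1.16 for Ykt6, 1.12 for Stx5a and 1.09 for Sec22b. Ykt6, Stx5a and Sec22b were not read singly under the other scalings. Gosr2 stood at 0.44 (adjusted p = 0.0526) and Gosr1 at 0.11 (adjusted p = 0.538), and neither passed. Of the 9 exocyst subunits other than Exoc4, 0 passed and 2 had an unadjusted p under 0.05, with log2 fold changes of -0.39 to 0.43. Of 7 endosomal SNAREs, 0 passed and 2 had an unadjusted p under 0.05, which 36.1% of all genes had. No test was made of these groups.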
